A study of Mus musculus with 12 samples.

Results

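FAK knockout (KO) and FAK rescue mouse embryonic fibroblasts were compared at a high seeding density on 6 of the 12 arrays of the series, chosen by their titles, 3 from each line. The KO line is a knockout line distributed by the ATCC, and the rescue line, clone DA2, is a line of FAK-deficient cells in which FAK was put back. A dense culture was seeded at 8200000 cells per 10 cm dish, its RNA was taken 24 h later, and 1 culture of each line was grown on each of 3 experimental days, here numbered 1 to 3. The sparse cultures (410000 cells per dish, 3 of each line) entered the fit to estimate the spread and to ask whether a difference between the lines depended on density. The rescue medium alone held hygromycin B and non-essential amino acids, so line, medium and drug cannot be told apart, and the rescue line is 1 clone.

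FAK, encoded by Ptk2, is recruited to the cytoplasmic tails of clustered integrins, phosphorylates itself and, together with Src, phosphorylates adaptors such as paxillin and p130Cas. It relays attachment to matrix and growth factor signals to the actin cytoskeleton and to the cell cycle, and it helps adhesions to disassemble as a cell moves. Fibroblasts that crowd each other normally leave the cell cycle, a behaviour known as contact inhibition, and the comparison asks which transcripts separate the lines under crowding.

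Levels are given as the log2 signal of a gene's probe minus the 75th percentile of its array, differences are KO minus rescue on the same log2 scale ± SE, and a gene is said to have risen or fallen when its Benjamini-Hochberg adjusted p from limma was under 0.05. Where no array of the dimmer line passed the background test, only a lower bound of the fold ("at least") is given. This bound sets the brighter line's mean against the lowest well-above-background signal of each array of the dimmer line, or the probe's own signal where that was higher. Some genes below are given with a fitted difference although the dimmer line was above background on 1 array only (Cbs, Ctso, Fgf7, Flt1, Itga11 and Tbx3) or on 2 (Cdh3, Col8a2, Etv5, Notch3 and Serping1). On the 6 dense arrays 24496 to 26183 of 41174 probes were well above background, no probe was saturated, and arrays of a line correlated at 0.982 to 0.992 across genes, a description only since genes are not independent. Of 12438 genes tested, 7667 differed (61.6%; 3972 higher and 3695 lower in KO cells, 31.9% and 29.7%), and 8352 (67.1%) had KO and rescue arrays that did not overlap. The median difference over all genes was 0.08. KO and rescue arrays shared a slide on day 2 only, so that line and slide cannot be told apart on the other days. Within that slide 7611 of 7631 changed genes with a value differed in the direction of the fit. The arrays of that slide also entered the fit that chose these genes, so this agreement is not a separate check. With the slide as a fixed block 6436 genes differed (3173 higher and 3263 lower). Scaled to the spike-in RNA, the median of all genes moved by 0.80 and 78.1% of the changed genes were higher, against 51.8%. The differences below are therefore relative to the bulk of the transcripts, not amounts per cell.

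The targeted gene itself was read by 2 probes, and both gave a signal above background on each of the 6 arrays. The brighter Ptk2 probe gave 0.50, 0.33 and 0.03 on the KO arrays of days 1 to 3 and 0.39, 0.34 and 0.34 on the rescue arrays, which overlap (difference -0.07 ± 0.18, limma, adjusted p = 0.763 over all probes). The other Ptk2 probe gave -1.88, -1.61 and -1.33 in KO and -0.97, -0.89 and -0.17 in rescue cells, with no overlap (-0.93 ± 0.31, limma, adjusted p = 0.021). That call was lost when the slide was a block (-0.53) and without the rescue array of day 3 (-0.68) or the KO array of day 1 (-0.80). Neither probe can be placed relative to the disrupted part of the gene with the files at hand, so neither checks the labels. Ptk2b, which encodes the related kinase Pyk2, stood at 1.17, 1.48 and 1.57 in KO and at -0.01, -0.81 and -0.55 in rescue cells. It was higher on every KO array than on any rescue array and rose by 1.86 ± 0.32 (limma, adjusted p = 0.000273 over all genes).

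**Figure D1:**
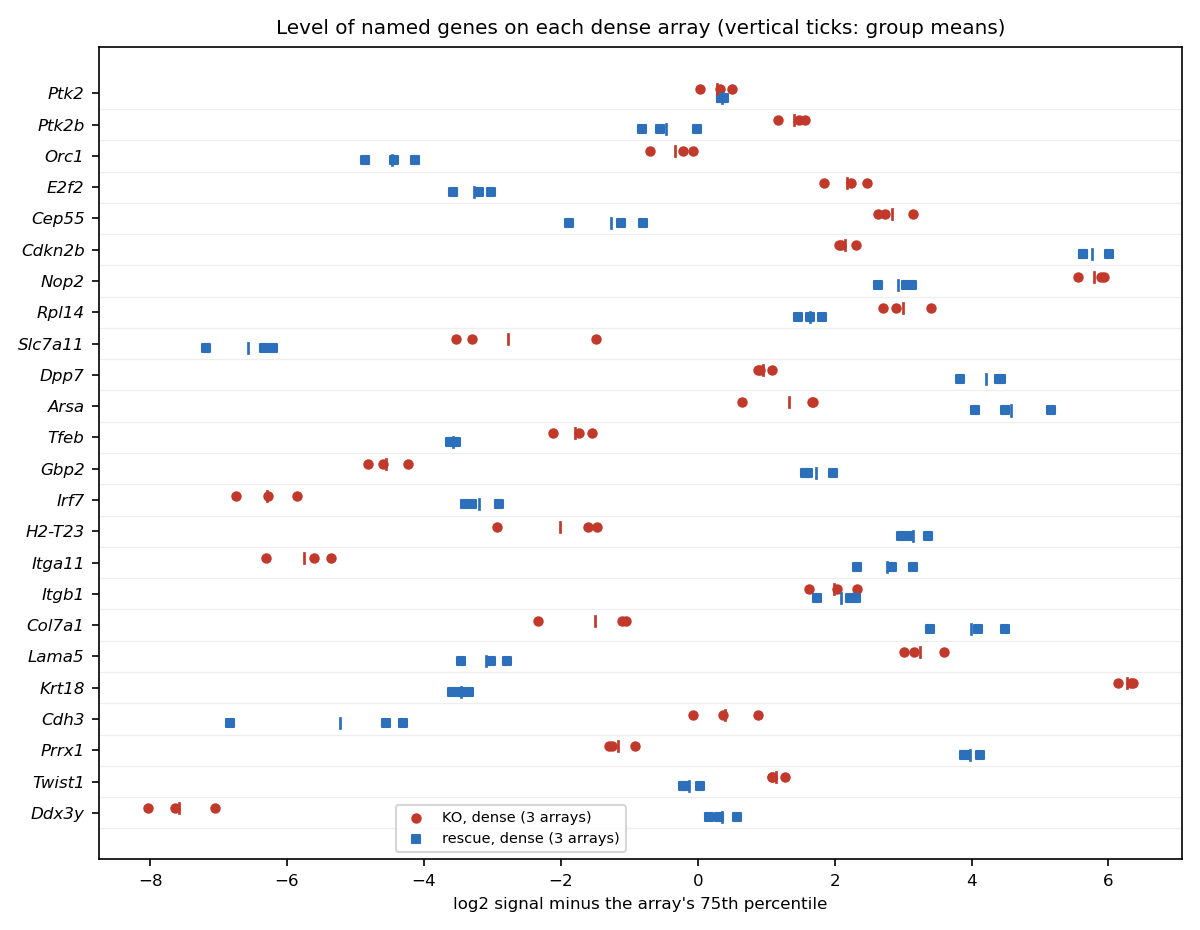
Levels of 24 named genes (log2 signal minus the array's 75th percentile) on each of the 3 KO arrays (circles) and 3 rescue arrays (squares) of dense cells, with short vertical ticks at the group means. Ptk2 and Itgb1 overlap between the lines, whereas Krt18 lies between 6.14 and 6.36 in KO cells and between -3.59 and -3.33 in rescue cells.

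The lines differed most in genes that were bright in one and not above background in the other: 365 genes were above background in KO cells only and 478 in rescue cells only. Gucy1a1, a subunit of the nitric oxide receptor guanylate cyclase, read 4.92, 3.57 and 3.38 on the KO arrays and stayed at background on the rescue arrays. KO cells exceeded rescue cells at least 1371-fold (limma, adjusted p = 3.89e-10). Ptgis, the prostacyclin synthase, was at least 1329-fold higher, Mycn, a MYC family transcription factor, at least 769-fold, Stk26, a germinal centre kinase, at least 728-fold, and Lrp2, the endocytic receptor megalin, at least 990-fold. In the other direction Ank, a membrane protein that exports pyrophosphate and citrate, read 3.99, 3.88 and 3.94 on the rescue arrays and was at least 907-fold lower in KO cells (limma, adjusted p = 5.89e-13). Dpysl3, a cytoskeleton-binding protein of growing axons, was at least 1042-fold lower, and Slc14a1, a urea transporter, at least 856-fold lower.

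Marker genes of cell types were examined next, because both lines carry the label of embryonic fibroblasts. Of 14 fibroblast markers tested (16 were listed), 11 fell, 1 rose and 2 did not pass, with a median of -1.77. With spike-in scaling 6 fell and 2 rose (median -0.97). Vimentin (Vim) stayed bright in both lines, at 4.57, 5.68 and 6.00 in KO and 7.42, 7.76 and 6.76 in rescue cells, and fell by 1.90 ± 0.37 (limma, adjusted p = 0.000855). Col1a1 fell by 1.89 ± 0.18. Pdgfrb, a platelet-derived growth factor receptor of mesenchymal cells, fell by 6.36 ± 0.34, and Prrx1, a homeodomain factor of limb mesenchyme, by 5.13 ± 0.21, while Twist1 rose by 1.26 ± 0.15.

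Mesothelial markers, genes of the lining of body cavities, went the other way: of 20 tested, 17 rose, 2 fell and 1 did not pass, with a median of 6.65. Of these, 8 were at background in one line. Over the 11 members above background on all 6 dense arrays the median was 2.46 and 8 rose. Keratin 18 (Krt18) read 6.14, 6.36 and 6.33 in KO and -3.59, -3.33 and -3.46 in rescue cells, a rise of 9.73 ± 0.17 (limma, adjusted p = 4.18e-12). Krt7 was at least 160-fold higher, and Tcf21, a basic helix-loop-helix factor of visceral mesenchyme, at least 431-fold higher. Lrrn4 was at least 601-fold higher. Among other cell types, 6 of 14 epithelial markers rose and 3 fell (64.3% changed, against 61.6% of all genes). Of these 6, 4 keratins, Krt7 and Krt18 among them, are on the mesothelial list too. E-cadherin (Cdh1) was at least 3.03-fold lower in KO cells. Endothelial markers (2 of 8 higher, 4 lower), blood cell markers (3 of 11 higher, 4 lower, with 0 higher without the KO array of day 1 and 1 without either array of day 3), muscle markers (3 of 9 higher, 1 lower) and neural markers (5 of 11 higher, 5 lower) did not move in 1 direction. In that order their shares of changed genes were 75%, 63.6%, 44.4% and 90.9%. Of 10 bone, cartilage and fat markers, 7 fell and 2 rose, among them Pparg, the adipocyte nuclear receptor, which fell by 4.58 ± 0.29, and lipoprotein lipase (Lpl), which rose by 6.64 ± 0.29. The part of cell identity in the gene groups described below was not tested.

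Transcription factors of the mesenchyme were mostly lower in KO cells, with 25 of 43 lower, 11 higher and 7 not passing (median -1.39). With normexp background correction 15 were lower (median -0.30), as were 15 of those above background on all 6 dense arrays. Eya1, a cofactor and phosphatase in organ formation, was at least 386-fold lower and Twist2, a regulator of dermal mesenchyme, at least 424-fold lower (limma, adjusted p = 4.11e-12 and 7.59e-12). Tbx3, a T-box factor, read 1.94, 1.88 and 2.11 in rescue cells. It read -4.41 on the KO array of day 1, the 1 KO array on which it was above background, and fell by 8.65 ± 0.69.

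Hox genes, whose 4 clusters give cells a position along the body axis, separated by cluster. All 9 tested genes of the Hoxb cluster were lower in KO cells, by 2.68 to 5.06, with the largest fall in Hoxb5 (1.63, 1.77 and 1.96 in rescue against -3.02, -3.15 and -3.63 in KO cells). All 4 tested genes of the Hoxd cluster were higher, and so were 4 of 5 of the Hoxc cluster. Hoxd4 was at least 268-fold higher, Hoxc9 at least 263-fold, and Hoxa10 at least 68.5-fold. The Hoxa cluster was mixed, with 5 of 9 genes higher, 3 lower and 1 not passing. The split by cluster was made after the values were seen. Hoxd3, Hoxd4, Hoxd8, Hoxc9, Hoxc13 and Hoxa10 were at background on the dense rescue arrays, so they could hardly have come out lower. Of the 33 tested genes of the whole Hox list 14 rose (median 0.25). Over those above background on all 6 dense arrays 6 rose and the median was -1.21.

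**Figure D2:**
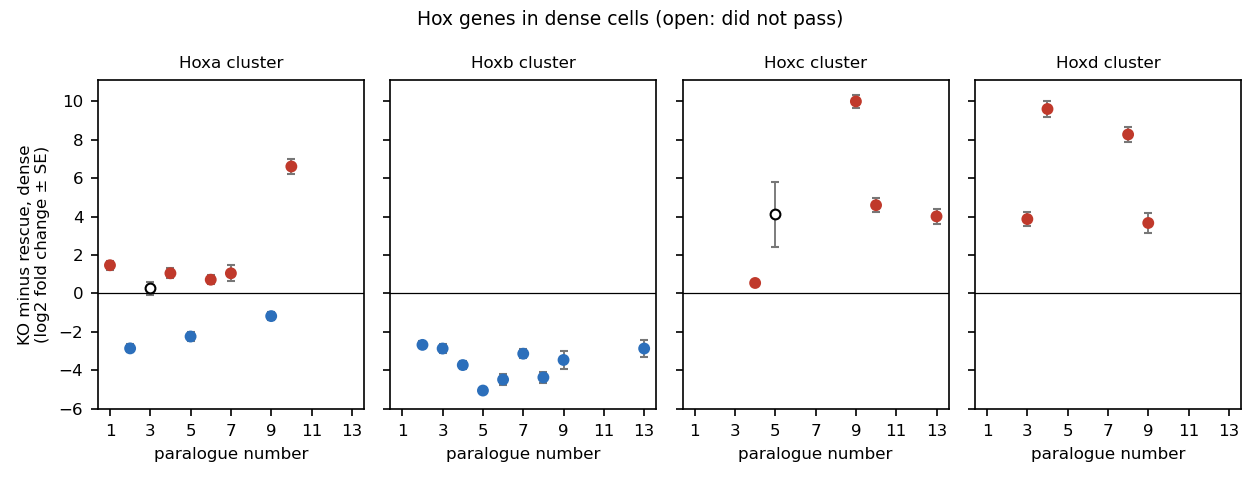
Difference between dense KO and dense rescue cells (log2 fold change, bars ± SE) for each tested Hox gene, by cluster and paralogue number. Filled points passed (red higher, blue lower in KO cells); the 9 Hoxb genes all lie below 0 and the 4 Hoxd genes all above it.

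Genes on the sex chromosomes also differed. Of 5 tested, the Y-linked Eif2s3y, Ddx3y, Kdm5d and Uty were well above background on all 3 rescue arrays and on none of the KO arrays, while Zfy2 did not pass. Ddx3y, an RNA helicase, read 0.16, 0.31 and 0.57 in rescue cells and was at least 75.4-fold lower in KO cells (limma, adjusted p = 8.89e-11). Eif2s3y, a translation initiation factor subunit, was at least 81.6-fold lower, Kdm5d, a histone demethylase, at least 34.8-fold and Uty at least 3.55-fold. Among imprinted genes, which are expressed from 1 parental allele, 3 of 15 rose and 5 fell (53.3% changed, against 61.6% of all genes). Mest read 7.17, 7.30 and 7.22 in KO and -4.56, -3.83 and -4.87 in rescue cells (11.65 ± 0.27), and Peg3, a zinc finger protein, exceeded its rescue level at least 350-fold.

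Genes of DNA replication stood higher in dense KO cells almost throughout. Of 53 replication licensing and fork genes, 48 rose (90.6%, against 31.9% of all genes tested), none fell and 5 did not pass, with a median of 2.10, and of 26 nucleotide synthesis genes 20 rose and 6 did not pass (median 1.35). Orc1, the subunit of the origin recognition complex that varies over the cell cycle, read -0.70, -0.22 and -0.07 in KO and -4.12, -4.86 and -4.43 in rescue cells, a rise of 4.14 ± 0.24 (limma, adjusted p = 3.27e-08). Cdc6, which loads the replicative helicase, rose by 3.83 ± 0.24, Pole2, a subunit of the leading-strand polymerase, by 3.79 ± 0.25, and Mcm5, a subunit of the helicase, by 3.47 ± 0.28. Ribonucleotide reductase (Rrm2) rose by 3.53 ± 0.27. For each of these 5 genes all KO arrays lay above all rescue arrays, and arrays of the lines did not overlap for 67.1% of all genes tested. The 5 were named for the size of their change, so this is not a separate check.

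The regulators of these genes moved with them: 17 of 26 E2F, MYB and FOXM1 family members and partners rose and 3 fell. E2f2 read 1.84, 2.24 and 2.47 in KO against -3.02, -3.57 and -3.20 in rescue cells (5.45 ± 0.24, limma, adjusted p = 2.6e-09), whereas Mxd4, an antagonist of MYC, fell by 2.27 ± 0.18. Of 21 cyclins, cyclin-dependent kinases and their activators 17 rose and none fell. Cyclin D2 (Ccnd2) read 4.59, 4.48 and 4.67 in KO and 1.38, 1.02 and 1.28 in rescue cells, and Cdk4, its partner, 4.41, 4.65 and 4.72 against 4.41, 4.58 and 4.54. Cdk4 differed by 0.08 ± 0.17 and did not pass.

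Mitotic genes were as uniform, with 59 of 60 higher (98.3%) and a median of 2.02. Pttg1, which encodes securin, was the 1 that did not pass. Cep55, which acts in abscission of the daughter cells, read 3.14, 2.63 and 2.74 in KO and -0.79, -1.88 and -1.12 in rescue cells (4.10 ± 0.27, limma, adjusted p = 9.43e-08). Kif15, a spindle motor, rose by 3.40 ± 0.27, Spc24, a kinetochore subunit, by 3.29 ± 0.20, and Ect2, the exchange factor that activates RhoA for cytokinesis, by 3.06 ± 0.22. Under the spike-in scaling the medians of the replication and mitosis lists were 2.90 and 2.82. That scaling moves all differences up by about 0.80, so it could not turn a rise and is no check of its direction.

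Inhibitors of the cycle did not move as a block, with 5 of 20 growth arrest genes higher, 9 lower and 6 not passing (70% changed). The number higher was 3 without the KO array of day 1 or the rescue array of day 3. Cdkn2b, the inhibitor p15 of Cdk4 and Cdk6, read 5.63, 6.00 and 5.62 in rescue and 2.09, 2.07 and 2.31 in KO cells, a fall of 3.60 ± 0.21 (limma, adjusted p = 3.23e-08). Btg1, an anti-proliferative gene, fell by 3.92 ± 0.25, and Cdkn2a by 1.35 ± 0.21, a call that was lost with spike-in scaling (-0.55). Cdkn1a (p21) overlapped between the lines (-0.18 ± 0.23), and Cdkn1b (p27) was 0.62 ± 0.19 higher, a call lost with the slide as a block (0.39). Fibroblasts that lack FAK have commonly been kept on a p53-deficient background, which the labels do not mention. Trp53 read 1.72, 0.59 and 0.99 in KO and 1.53, 0.80 and 1.33 in rescue cells. Of 26 genes of the p53 list 6 were higher, 10 were lower and 10 did not pass. The share of changed genes was 61.5%, against 61.6% of all genes. Without the rescue array of day 2, 3 were higher, and with spike-in scaling 3 were lower. Bax differed by -0.08 ± 0.19, while Pmaip1 (Noxa) rose by 3.49 ± 0.18.

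Promoters of some members hold known letter motifs, and examples are given for the replication, mitosis, interferon, lysosome and amino acid groups. Each printed promoter is that of a member that moved with its list. It was picked because it holds the motif, so it does not stand for the list. Sequences are RefSeq windows from 250 bases before to 30 after the annotated start (mouse build GRCm38.p6), read 5′ to 3′ on the strand of the gene, in lower case with the matches in capitals. Matches were counted on both strands in windows from 250 before to 50 after the start, in the promoter table's 32851 windows of 27025 genes. Windows were found for 44 of the 53 replication genes, 53 of the 60 mitotic genes and 27 of the 35 interferon-stimulated genes tested. A match describes letters, not binding. The E2F motif (TTTGGCGC or TTTCCCGC) was in 29.1% of the 55 windows of replication genes, against 2.62% of windows of genes tested and 1.56% of all windows. Cdc6 (chr11:98907901-98908180, plus strand) holds it 138 bases before the start and Pole2 (chr12:69228161-69228440, minus strand) just after it.
Cdc6: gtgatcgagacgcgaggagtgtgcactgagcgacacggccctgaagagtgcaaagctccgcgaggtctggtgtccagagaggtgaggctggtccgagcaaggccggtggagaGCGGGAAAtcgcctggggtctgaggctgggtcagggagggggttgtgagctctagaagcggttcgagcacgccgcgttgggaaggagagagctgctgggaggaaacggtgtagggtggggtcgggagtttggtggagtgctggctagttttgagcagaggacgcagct
Pole2: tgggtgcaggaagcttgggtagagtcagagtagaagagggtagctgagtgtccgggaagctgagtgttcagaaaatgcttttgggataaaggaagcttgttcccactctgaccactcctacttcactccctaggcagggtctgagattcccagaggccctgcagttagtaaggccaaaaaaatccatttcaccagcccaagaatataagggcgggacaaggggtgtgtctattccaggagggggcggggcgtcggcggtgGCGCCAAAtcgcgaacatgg

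Mitotic promoters carried 2 other motifs. TTTGAA, the cell cycle homology region, was in 61.7% of the 60 windows of mitotic genes against 12.2% of windows of genes tested, and CCAAT in 66.7% against 37.9%. The promoter of Ect2 (chr3:27153825-27154104, minus strand) holds 5 matches, none of them overlapping.
Ect2: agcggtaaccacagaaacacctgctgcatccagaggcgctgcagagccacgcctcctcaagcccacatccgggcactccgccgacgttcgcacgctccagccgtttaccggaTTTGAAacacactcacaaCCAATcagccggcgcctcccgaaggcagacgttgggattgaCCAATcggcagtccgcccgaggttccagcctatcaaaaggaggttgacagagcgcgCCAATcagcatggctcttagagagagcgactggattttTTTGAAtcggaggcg

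**Figure D3:**
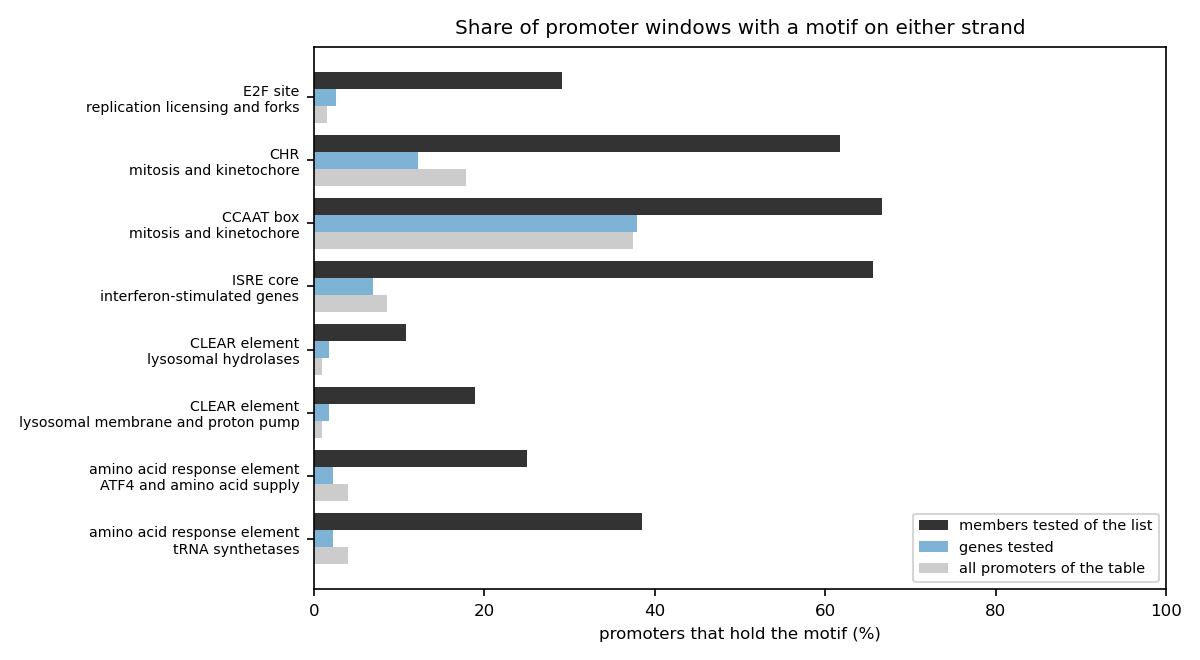
Share of promoter windows (%, 250 bases before to 50 after the start) that hold a motif on either strand, for tested members of a list (black), all genes tested (blue) and all windows of the table (grey). The interferon-stimulated response element is in 65.6% of windows of interferon-stimulated genes and in 7.0% of windows of genes tested.

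Genes of ribosome synthesis were mostly higher in KO cells. Of 49 ribosome biogenesis genes 43 rose, 1 fell and 5 did not pass (median 1.23). Nop2, an rRNA methyltransferase, read 5.89, 5.56 and 5.93 in KO and 3.13, 3.04 and 2.63 in rescue cells, a rise of 2.86 ± 0.18 (limma, adjusted p = 6.04e-08), and Nolc1, a nucleolar phosphoprotein, rose by 2.38 ± 0.21. Of 80 cytosolic ribosomal proteins 72 did not pass, 6 rose and 2 fell (10%, against 61.6% of all genes), with a median of 0.14. With spike-in scaling 26 ribosomal proteins rose (median 0.94), with normexp background correction 1 rose, and without the rescue array of day 2 12 rose, or 3 without that of day 1. Rpl14 rose by 1.36 ± 0.20, and Rpl10 fell by 0.69 ± 0.24, a call that was lost with spike-in scaling (0.11). Of 52 respiratory chain and ATP synthase subunits 37 did not pass.

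Genes of amino acid supply under the transcription factor ATF4 were mostly higher: 22 of 36 rose, 6 fell and 8 did not pass. Cbs, which starts the conversion of homocysteine to cysteine, read -2.66, -2.74 and -2.79 in KO and -6.11, -7.30 and -7.48 in rescue cells (4.23 ± 0.42, limma, adjusted p = 3.18e-06). Cth, the next enzyme of that pathway, was at least 33.7-fold lower. Slc7a11, the cystine importer, was at least 11.7-fold higher (limma, adjusted p = 1.71e-05), a call that was lost with normexp background correction. Of 20 tRNA synthetases 12 rose and 1 fell, among them Vars (2.28 ± 0.33) and Farsa (2.33 ± 0.29), which charge tRNAs with valine and phenylalanine. The amino acid response motif TGATGNAA was in 9 of the 36 windows (25%) of the ATF4 list and in 38.5% of the 13 windows of tRNA synthetases, against 2.26% of windows of genes tested. Among members that rose, the motif was in 4 of 22 windows (18.2%) of the ATF4 list and in 4 of 9 of tRNA synthetases. Slc7a11 (chr3:50443584-50443863, minus strand) holds it on both strands, at 66 and 47 bases before the start. The rescue medium alone held added non-essential amino acids, and the part of the medium in these differences was not tested.
Slc7a11: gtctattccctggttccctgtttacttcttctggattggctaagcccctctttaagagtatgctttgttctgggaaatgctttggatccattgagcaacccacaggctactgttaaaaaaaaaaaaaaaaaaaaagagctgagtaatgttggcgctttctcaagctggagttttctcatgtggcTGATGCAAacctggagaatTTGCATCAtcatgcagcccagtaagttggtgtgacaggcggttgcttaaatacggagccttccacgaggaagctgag

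Chaperones and other endoplasmic reticulum genes of the unfolded protein response rose in 16 of 24 cases and fell in 2, with 8 higher under normexp background correction. Sdf2l1 rose by 2.08 ± 0.25 and Manf by 1.86 ± 0.26. Cholesterol synthesis was divided, with 5 of 24 higher, 5 lower and 14 not passing (41.7% changed, against 61.6% of all genes). Its values ran from Tm7sf2 (-1.90 ± 0.22) to Msmo1 (1.68 ± 0.29), 2 enzymes of late sterol synthesis. Among glycolysis and hypoxia genes, 9 of 32 rose and 11 fell (62.5% changed, near the share of all genes), with 3 lower under spike-in scaling. Gapdh rose by 1.32 ± 0.18, Aldoc, an aldolase, read 2.04, 1.32 and 0.59 in KO against -4.64, -4.49 and -4.93 in rescue cells, and Bnip3, a mitophagy receptor, fell by 5.27 ± 0.28.

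Lysosomal genes were lower in KO cells, enzymes and membrane proteins alike. Of 42 lysosomal hydrolases 32 fell (76.2%, against 29.7% of all genes), 2 rose and 8 did not pass (median -1.40), and of 36 genes of the lysosomal membrane and proton pump 26 fell, 4 rose and 6 did not pass (median -1.25). With spike-in scaling these medians were -0.64 and -0.45, and 15 hydrolases and 9 membrane and pump genes still fell. Ctso, a cysteine cathepsin, read 1.25, 1.11 and 1.15 in rescue and -5.67, -5.28 and -5.88 in KO cells (-6.78 ± 0.23, limma, adjusted p = 2.7e-10). Dpp7, a dipeptidyl peptidase, fell by 3.26 ± 0.19 and arylsulfatase A (Arsa) by 3.23 ± 0.36. Ctns, the cystine exporter of the lysosome, fell by 2.62 ± 0.29 and Igf2r, the receptor that sorts hydrolases to it, by 2.48 ± 0.22. Lamp1 overlapped between the lines (-0.88 ± 0.39, limma, adjusted p = 0.072), and passed without the KO array of day 3 (-1.27) or the rescue array of day 3 (-1.19).

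The factors known to drive these genes did not move together. Mitf, of the MiT/TFE family, fell by 3.82 ± 0.27 and its relative Tfeb rose by 1.78 ± 0.28 (limma, adjusted p = 0.000176). Sort1, the sorting receptor sortilin, was the lysosomal gene with the largest rise, at 1.54, 0.92 and 0.72 in KO and -4.38, -3.59 and -4.93 in rescue cells. Of 32 autophagy genes 21 fell, 2 rose and 9 did not pass, and the list's median of -0.71 turned to 0.09 with spike-in scaling, under which 6 fell. Optn, an autophagy receptor for damaged mitochondria and bacteria, fell by 5.08 ± 0.32, and Tecpr1, which tethers autophagosomes to lysosomes, by 3.53 ± 0.29. The CLEAR motif TCACGTGA, to which MiT/TFE factors are known to bind, was in 10.8% of 37 windows of hydrolases and 18.9% of 37 windows of membrane and pump genes, against 1.74% of windows of genes tested. Dpp7 (chr2:25356303-25356582, minus strand) holds it 74 bases before the start.
Dpp7: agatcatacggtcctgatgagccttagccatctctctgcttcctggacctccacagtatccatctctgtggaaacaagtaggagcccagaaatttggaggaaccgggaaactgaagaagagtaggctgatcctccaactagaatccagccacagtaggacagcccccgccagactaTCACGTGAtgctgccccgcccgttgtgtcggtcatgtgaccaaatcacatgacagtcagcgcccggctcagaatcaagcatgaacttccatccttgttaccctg

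Interferon-stimulated genes, the antiviral programme of the cell, were mostly lower in KO cells. Of 35 tested, 23 fell (65.7%, against 29.7% of all genes), 3 rose and 9 did not pass (median -2.31). Of the 35, 11 were at background in 1 line. Over the members above background on all 6 dense arrays the median was -0.56 and 9 fell. Gbp2, a GTPase that attacks the vacuoles of parasites, read 1.98, 1.57 and 1.62 in rescue and -4.82, -4.23 and -4.60 in KO cells (-6.27 ± 0.47, limma, adjusted p = 2.92e-07). Parp12 was at least 61.6-fold lower. Trim25, which activates the RNA sensor RIG-I, went the other way and rose by 4.72 ± 0.22. Of 24 interferon signalling factors 16 fell and 2 rose, against 6 lower and 4 higher with spike-in scaling, under which the median went from -0.98 to -0.18. Irf7, the factor that amplifies interferon production, was at least 6.32-fold lower and Tlr2 fell by 2.89 ± 0.19, while Irf5 rose by 2.88 ± 0.26. With normexp background correction, which compresses dim probes, the median of the interferon-stimulated list was -0.47 and 13 of its genes fell.

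The interferon-stimulated response element (searched as GAAANNGAA) was in 65.6% of 32 windows of these genes, against 7.0% of windows of genes tested and 8.56% of all windows. Gbp2 (chr3:142620413-142620692, plus strand) holds it 58 bases before the start, on the minus strand.
Gbp2: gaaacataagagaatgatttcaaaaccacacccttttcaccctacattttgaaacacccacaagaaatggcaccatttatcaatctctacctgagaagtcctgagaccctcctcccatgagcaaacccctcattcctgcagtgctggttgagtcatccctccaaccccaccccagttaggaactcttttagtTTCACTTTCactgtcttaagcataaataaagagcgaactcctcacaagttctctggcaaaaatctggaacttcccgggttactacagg

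Genes of antigen presentation on MHC class I, which interferons are known to induce, fell in 17 of 23 cases and rose in none (median -1.50), against 10 lower and 3 higher with spike-in scaling. H2-T23 read 2.97, 3.37 and 3.08 in rescue and -2.93, -1.61 and -1.48 in KO cells (-5.14 ± 0.35, limma, adjusted p = 1.36e-07), and H2-Q7 fell by 4.21 ± 0.19. H2 genes are near-identical copies that probes may not tell apart. H2-K1 is uncertain: the brightest of its 3 probes fell by 3.29 ± 0.22, the other 2 rose, and the mean of the probes was 0.57 higher in KO cells.

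Secreted immune factors were divided. Of 17 chemokines 10 fell and 2 rose, with 6 lower under normexp background correction. Cxcl12, which guides stem and immune cells, read 6.56, 6.45 and 5.95 in rescue and 2.77, 2.30 and 2.03 in KO cells (-3.95 ± 0.33, limma, adjusted p = 8.26e-07), and Ccl9 fell by 5.05 ± 0.21. Complement genes were split, with 7 of 18 higher and 7 lower (77.8% changed, against 61.6% of all genes). Serping1, the C1 inhibitor, rose by 6.00 ± 0.51. In prostaglandin synthesis Ptges, the prostaglandin E synthase, was at least 133-fold lower in KO cells, whereas Ptgis, the prostacyclin synthase described above, was bright in KO cells alone.

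**Figure D4:**
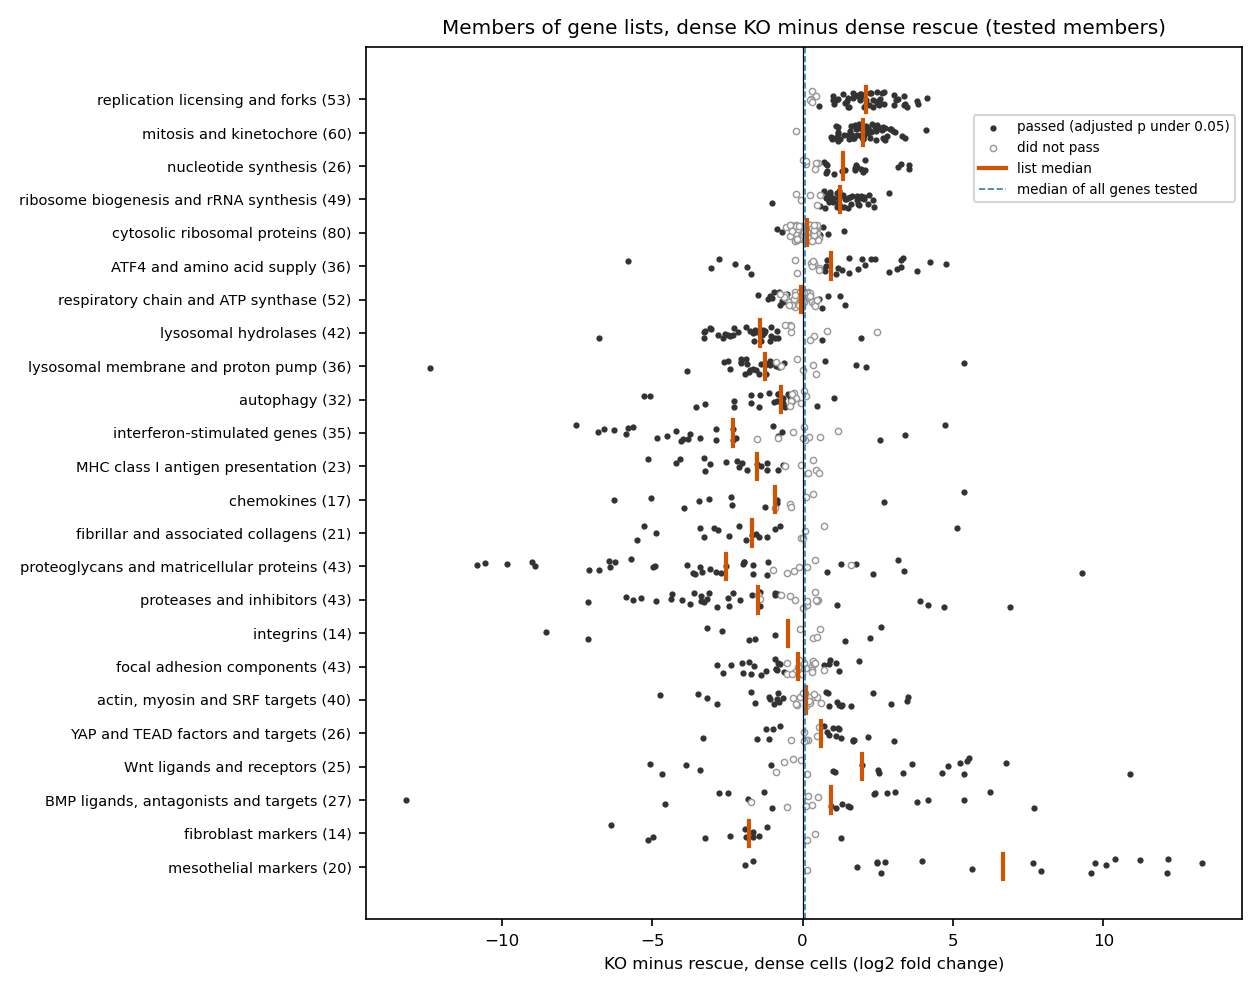
KO minus rescue in dense cells (log2 fold change) for each tested member of 24 gene lists, with the number tested in parentheses; filled points passed, open points did not, and the orange line is the list median. Replication and mitosis genes lie to the right of 0 almost without exception, lysosomal genes mostly to the left, and ribosomal proteins around the median of all genes (dashed, 0.08).

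Structural matrix genes were mostly lower in KO cells. Of 21 fibrillar and associated collagens 16 fell, 1 rose and 4 did not pass (median -1.67), with 10 lower under either normexp background correction or spike-in scaling. Col7a1, the anchoring fibril collagen, read 4.10, 4.49 and 3.40 in rescue and -2.33, -1.11 and -1.05 in KO cells (-5.49 ± 0.41, limma, adjusted p = 2.76e-07). Col27a1, a cartilage collagen, was at least 19.2-fold lower, a call that was lost with normexp background correction, while Col8a2 rose by 5.14 ± 0.56. Of 43 proteoglycans and matricellular proteins 29 fell, 7 rose and 7 did not pass (median -2.56, or -1.98 with bounds in place of fitted values), and 16 of those above background on all 6 dense arrays fell. Tgfbi, an integrin-binding matrix protein, read 4.67, 5.10 and 4.31 in rescue and -3.67, -4.02 and -4.92 in KO cells, Ccn5 was at least 461-fold lower, and Gpc3, a heparan sulphate proteoglycan, at least 189-fold higher. Fibronectin (Fn1) fell by 1.65 ± 0.18, on 3 of 3 arrays, a call that was lost with spike-in scaling (-0.85).

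Basement membrane and elastic fibre genes were divided, and 70% of each list changed, against 61.6% of all genes. Of 20 basement membrane genes 9 rose and 5 fell, led by the laminin chain Lama5, which read 3.01, 3.59 and 3.16 in KO and -3.03, -3.45 and -2.78 in rescue cells (6.34 ± 0.29, limma, adjusted p = 3.64e-09). Of 30 elastic fibre genes 15 fell and 6 rose. Emilin2 fell by 8.81 ± 0.20, whereas Mfap4, a microfibril protein, was at least 145-fold higher. Proteases and their inhibitors were mostly lower (26 of 43, with 5 higher), from Adam23, at least 46.0-fold lower, to the membrane-anchored metalloprotease Mmp17, which rose by 6.88 ± 0.34.

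Integrins, the receptors upstream of FAK, did not move in 1 direction: of 14 tested 7 fell, 3 rose and 4 did not pass, against 4 lower and 6 higher with spike-in scaling. The share of changed integrins was 71.4%, against 61.6% of all genes. Itga11, a collagen receptor subunit, read 2.83, 3.14 and 2.32 in rescue and -5.60, -5.36 and -6.30 in KO cells (-8.52 ± 0.37, limma, adjusted p = 2.42e-09), and Itgb7 fell by 7.14 ± 0.20. Itga5, the alpha chain of the fibronectin receptor, read 1.93, 1.25 and 1.69 in rescue and -1.23, -1.19 and -0.72 in KO cells and fell by 2.67 ± 0.21. Its partner Itgb1 overlapped between the lines, at 1.62, 2.04 and 2.33 in KO and 2.23, 1.74 and 2.32 in rescue cells (-0.10 ± 0.25). Itga7, a laminin receptor subunit, rose by 2.59 ± 0.24.

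Among 43 focal adhesion components 17 fell, 6 rose and 20 did not pass, a share of changed genes of 53.5% against 61.6% of all genes, and with spike-in scaling 14 rose and 5 fell. Tns2, a tensin that links integrins to actin, read between 2.42 and 2.998 in rescue and -0.32, -0.26 and -0.14 in KO cells (-2.86 ± 0.19, limma, adjusted p = 1.12e-07), and Parvb, of the ILK complex, fell by 2.64 ± 0.44. Paxillin (Pxn), a substrate of FAK, did not pass (-0.01 ± 0.25). Of 9 genes of caveolae, the membrane pits that flatten under tension, 7 fell and 1 rose (3 fell with spike-in scaling, median -0.37), with Cav1 at 6.34, 6.85 and 5.63 in rescue and 3.72, 4.11 and 3.89 in KO cells. Of 40 actin, myosin and SRF target genes 12 rose, 13 fell and 15 did not pass (62.5% changed, near the share of all genes). With spike-in scaling 4 of them were lower. Calponin (Cnn1) rose by 3.50 ± 0.20, and smooth muscle actin (Acta2) was 0.48 ± 0.24 higher and did not pass. Of 26 YAP and TEAD genes 13 rose, 6 fell and 7 did not pass, with 7 higher when the slide was a block. Tead4 rose by 2.16 ± 0.26 and Yap1 by 0.87 ± 0.22, the latter a call that was lost with normexp background correction (0.41).

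Genes of adhesion between cells changed at about the share of all genes. Of 17 cadherins and catenins 5 rose, 5 fell and 7 did not pass, a share of changed genes of 58.8% against 61.6%. P-cadherin (Cdh3) rose by 5.62 ± 0.58 and N-cadherin (Cdh2), at 0.49, 0.12 and 0.17 in KO and -0.48, -1.23 and -0.45 in rescue cells, by 0.98 ± 0.27. Of 25 genes of desmosomes, tight and gap junctions 12 rose and 5 fell (68% changed). Claudin 15 (Cldn15) rose by 6.67 ± 0.24 and plakophilin 1 (Pkp1), a desmosomal plaque protein, was at least 43.0-fold lower in KO cells.

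Among signalling genes, of 25 Wnt ligands and receptors 15 rose (60%, against 31.9% of all genes), 5 fell and 5 did not pass (median 1.96, or 1.09 with bounds). Among those above background on all 6 dense arrays, 7 rose and 2 fell. Rspo1, which amplifies Wnt signals, was at least 907-fold higher, Wnt10a at least 106-fold and Wnt5a at least 20.8-fold. Of 27 BMP pathway genes 14 rose (51.9%) and 7 fell (25.9%, or 4 genes with spike-in scaling), with Bmp6 at least 90.4-fold higher and Bambi, a decoy receptor, 5.37 ± 0.19 higher, against Grem1, a BMP antagonist, which was bright in rescue cells alone. Of 16 Notch pathway genes 7 rose (43.8%) and 5 fell (31.2%), with Notch3 6.39 ± 0.53 lower and the target Hey1 4.30 ± 0.27 higher.

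Of 35 growth factor ligands 18 fell (51.4%, against 29.7% of all genes) and 11 rose (31.4%, against 31.9%). Among ligands above background on all 6 dense arrays 9 fell and 5 rose. Fgf7, which acts on epithelia, read 2.83, 2.29 and 3.83 in rescue and -4.42, -7.36 and -4.80 in KO cells, whereas Fgf5 was at least 353-fold and Fgf9 at least 126-fold higher in KO cells. Vegfc, the lymphatic growth factor, was at least 101-fold lower. Of 25 receptor tyrosine kinases 8 rose (32%) and 10 fell (40%), or 5 with spike-in scaling. Flt1, a receptor for VEGF, fell by 9.38 ± 0.61 and Fgfr1 by 3.93 ± 0.21, while Mst1r, the receptor of macrophage-stimulating protein, read 2.23, 2.01 and 1.65 in KO and -5.64, -5.21 and -5.61 in rescue cells. Of 16 Eph receptors and ephrins 9 rose (56.2%) and 3 fell, with Efna5 9.26 ± 0.24 higher. Among immediate early and ERK feedback genes 8 of 27 rose (29.6%) and 10 fell (37%), shares near those of all genes, with Etv1 at least 30.8-fold lower and its relative Etv5 3.60 ± 0.27 higher.

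Whether these differences depended on density was tested as an interaction, the difference between the lines in dense cells minus that in sparse cells. It passed for 2579 of 12438 genes (20.7%; 1402 higher, 11.3%, and 1177 lower, 9.46%), of which 2200 also differed between the lines when dense. This count moved with the processing, to 567 with normexp background correction and to 10759 with spike-in scaling. The proliferation lists stood out in their counts: 43 of 53 replication genes and 50 of 60 mitotic genes passed with a higher difference in dense cells and none with a lower one. Their medians were 2.10 and 2.02 in dense cells, against 0.32 and 0.13 in sparse cells. Cdc6 differed by -0.06 ± 0.24 between sparse KO and sparse rescue cells and by 3.83 ± 0.24 between dense ones (interaction 3.89, limma, adjusted p = 4.8e-05). Lysosomal hydrolases had 16 of 42 genes with a lower difference in dense cells and none with a higher one, and interferon-stimulated genes 20 of 35 and none. Of the 35 interferon-stimulated genes 11 were at background in 1 dense line, against 1 of the 42 hydrolases. The interaction of such genes rests on the background level, which moves with the scaling of each array. The interaction counts of the lists were not repeated without these genes or with normexp background correction. No cytosolic ribosomal protein passed the interaction.

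The largest downward interaction was that of Abca1, a cholesterol exporter (-6.96, limma, adjusted p = 3.05e-05). It overlapped between the lines in dense cells (-0.45 ± 0.38) and was 6.51 higher in sparse KO cells, with no sparse rescue array above background. Other genes were above background in dense rescue cells and not in dense KO cells. Islr, a secreted leucine-rich protein, read -1.75, -1.84 and -2.01 on the dense rescue arrays and was at least 16.2-fold lower in dense KO cells, with a difference of 0.27 ± 0.20 in sparse cells. Without the filter on dim probes another probe stood for Islr and did not pass (0.67). Enpp2, which makes the lipid mediator lysophosphatidic acid, was at least 178-fold lower in dense KO cells and S100g, a calcium-binding protein, at least 230-fold lower. Mme, the peptidase neprilysin, was 3.96 ± 0.30 lower in dense and 1.42 ± 0.30 higher in sparse KO cells. Selenop, a selenium transport protein, was 5.74 higher in sparse KO cells and overlapped between the lines in dense cells (-0.74 ± 0.49). In the other direction Cobl, an actin nucleator, was at least 17.5-fold higher in dense KO cells and Fst, follistatin, at least 11.1-fold, with differences of -0.23 and -0.20 in sparse cells. In all, 146 genes changed in opposite directions at the 2 densities.

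**Figure D5:**
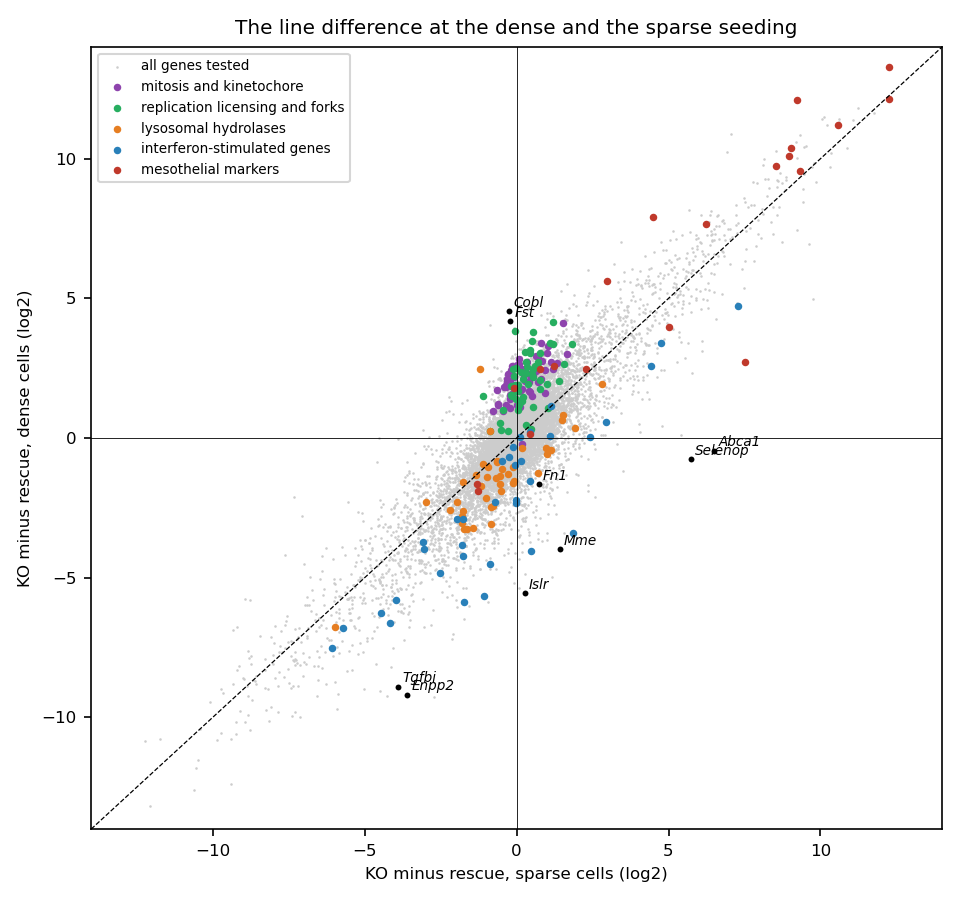
KO minus rescue in dense cells (vertical axis) against the same in sparse cells (horizontal axis), both as log2 fold changes, for 12438 genes, with 5 lists in colour and 9 genes named. Most replication and mitosis genes lie above the dashed line of equality near 0 on the sparse axis, and Abca1 and Selenop lie far to the right near 0 on the dense axis.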

How the data were processed

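RNA of 12 cultures was labelled with Cy3 and hybridised to Agilent one-colour arrays, per the labels' protocols. The authors' deposited scanner files (Feature Extraction 10.5.1.1, per the file headers) hold the processed signal intensity of each spot, background-subtracted per the file headers. The deposited value table is on a log2 scale of unstated centring and served as an alternative only. The log2 of each signal minus the array's 75th percentile was taken over non-control spots without outlier flags. A probe was kept where all 3 arrays of any of the 4 groups passed the scanner's background test. Of 41174 probes, 24375 were named by matching their accession to RefSeq transcripts, and a gene was read from its brightest probe (by the mean of all 12 arrays). The 4 groups were fitted together in limma 3.58.1 (R 4.3.3) with Benjamini-Hochberg adjustment. In a test on made-up data of 12438 genes, 45% of 100 genes changed by 1 on the log2 scale and 92% of 100 changed by 2 were recovered. No other made-up gene was changed, whereas 61.6% of genes differed in the real data. The adjusted p depends on that share, so these figures do not give the recovery in the real data. Alternatives were normexp (offset 50, on median signals because mean signals were not in the files used), median centring, quantile normalization, spike-in scaling, other filters, other probe rules, the slide or day as a block, the deposited table, and each array left out.

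The labels say that cultures were grown on shared experimental days. Deviations of same-day arrays correlated above 0.1 in 11 of 18 pairs, against 2 of 36 pairs from different days. Replicates are cultures of 1 line, so p-values cover the spread between cultures. The members and gene lists were chosen with earlier results of these data known. Genes were named by rule: the 15 largest rises and falls whose arrays did not overlap, the 4 largest changes, the largest opposite change and up to 2 that did not pass in each list, the 8 largest interactions each way, and a fixed set. Of that set Mki67, Ccnd1 and Xist were not among the genes tested. Some genes that the rule names are not reported here.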

Additional observations from a re-analysis of the deposited data

Results flagged for a closer look

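The KO minus rescue difference itself differed between dense and sparse cultures for 2579 of 12438 genes, by the interaction term of the fit (limma, adjusted p under 0.05). The values below are that interaction, the difference in dense cells minus the difference in sparse cells on the log2 scale, for the named genes that passed. Its sign is not the direction of the difference in dense cells. Cth, Twist2, Parvb and Ccl9 were lower in dense KO cells although their interaction is positive. Trim25, Sort1, Lama5, Mst1r and Itga7 were higher there although theirs is negative. All comparisons use the same 12 arrays, and the cause of these differences was not tested. Genes given above only with a bound ("at least") were at background in 1 line when dense, among them Eif2s3y, Kdm5d, Uty, Ank, Eya1 and Parp12. Their interaction rests on the background level, which moves with the 75th percentile of each array. That percentile was 951 to 1594 on dense and 294 to 688 on sparse KO arrays. For such genes the value is not a measured dependence on density.

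Genes of the cell cycle and of growth arrest with a higher difference in dense cells were Cdc6 (3.89), Pole2 (3.24), Rrm2 (3.19), Mcm5 (2.96), Orc1 (2.96), E2f2 (2.90), Kif15 (2.60), Cep55 (2.58), Spc24 (2.25), Ccnd2 (2.05), Ect2 (2.05) and Cdkn1a (1.03). Genes of the cell cycle and of growth arrest with a lower difference in dense cells were Pmaip1 (-2.62), Cdkn2a (-1.42), Cdkn1b (-1.41) and Cdkn2b (-1.24). Genes of ribosome synthesis, amino acid supply, protein folding and metabolism with a higher difference in dense cells were Aldoc (3.65), Slc7a11 (3.27), Cth (2.97), Sdf2l1 (2.63), Manf (2.29), Vars (1.66), Nolc1 (1.62) and Nop2 (1.08). Genes of ribosome synthesis, amino acid supply, protein folding and metabolism with a lower difference in dense cells were Abca1 (-6.96) and Selenop (-6.47). Lysosomal, autophagy and immune genes with a higher difference in dense cells were Irf5 (2.75) and Ccl9 (0.95). Lysosomal, autophagy and immune genes with a lower difference in dense cells were H2-T23 (-3.18), Trim25 (-2.56), H2-Q7 (-2.24), Sort1 (-2.13), Irf7 (-1.96), Tecpr1 (-1.89), Ctns (-1.82), Arsa (-1.81), Mitf (-1.68), H2-K1 (-1.60), Igf2r (-1.54), Dpp7 (-1.52), Parp12 (-1.46) and Tlr2 (-1.31). Genes of matrix and adhesion with a higher difference in dense cells were Cobl (4.77), Cdh3 (2.63), Parvb (2.57), Cldn15 (2.14), Cdh2 (1.21) and Cnn1 (1.04). Genes of matrix and adhesion with a lower difference in dense cells were Islr (-5.83), Enpp2 (-5.59), Mme (-5.38), Tgfbi (-5.01), Ccn5 (-2.52), Fn1 (-2.38), Adam23 (-2.22), Itga7 (-1.58), Lama5 (-1.47) and Itgb7 (-0.89). Other named genes with a higher difference in dense cells were Fst (4.38), Krt7 (3.43), Hoxc9 (1.85), Stk26 (1.38), Bambi (1.24), Krt18 (1.2), Tcf21 (1.14) and Twist2 (0.98). Other named genes with a lower difference in dense cells were S100g (-6.58), Uty (-2.70), Etv1 (-2.39), Kdm5d (-2.19), Mst1r (-1.79), Eif2s3y (-1.48), Eya1 (-1.37), Ank (-1.28) and Fgfr1 (-0.995).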

How the results depend on the processing

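Counts of changed genes (7667: 3972 higher and 3695 lower) stayed within 1.5 times under median centring, quantile normalization, the slide as a fixed or random block, both other filters, the mean of probes, kept outlier spots and the 6 dense arrays alone. With normexp background correction 5028 genes changed (2533 higher) and the interaction passed for 567. With spike-in scaling 1500 genes were lower and the interaction passed for 10759. In the deposited value table as labelled, 0 genes were higher, lower or changed (limma, 61 at an unadjusted p under 0.05) and 0 passed the interaction (30 unadjusted). With its day 3 lines exchanged, 3573 were higher and 3689 lower. Leaving out 1 array at a time gave 7023 to 7326 changed genes (3564 to 3771 higher, 3391 to 3647 lower) and 1967 to 2572 interactions. With the experimental day as a replicate block 7973 genes changed and the interaction passed for 2950. The block changed no call of a named gene.

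Turns of direction were counted only for named genes that passed in the main fit or in the alternative. These were Rpl10 with spike-in scaling (0.11), Islr without a filter (0.67), H2-K1 with the mean of probes (0.57) and Yap1 in the deposited table as labelled (-0.0763). The dimmer Ptk2 probe did not pass with normexp (-0.35), spike-in scaling (-0.13) or the slide block (-0.53), and ranged from -1.08 to -0.68 without 1 array. The dimmer Ptk2b probe (1.06) did not pass with normexp (0.53). The brighter Ptk2 probe (-0.07) gave 0.73 with spike-in scaling and passed in neither fit. Without 1 array the brighter Ptk2 probe gave -0.18 to 0.06, and the Ptk2b probes 1.69 to 2.09 and 0.83 to 1.26. Of 3155 values of 153 named genes, 2907 were scored as unchanged. A gene that passed in neither fit was scored so whatever its direction. The 3155 include 153 differences within the shared slide, which have no test and were scored by their distance from the main value. Of those 153, 80 were scored as unchanged. The causes were not tested. Only 1 slide holds both lines, and signal over background limits dim probes. Small counts within lists also moved without 1 array: among E2F, MYB and FOXM1 regulators 5 were lower without the rescue array of day 2, and 1 hydrolase was higher without the KO array of day 3.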

Other observations

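Of all genes tested 61.6% changed, and the shares of further groups are given beside it. Of 26 semaphorins, plexins and neuropilins 11 rose and 8 fell in dense KO cells (73.1% changed), and of 13 IGF binding proteins 4 rose and 6 fell (76.9%). Of 16 genes of prostaglandin synthesis and reception 8 rose and 4 fell (75%). Of 34 antioxidant and aryl hydrocarbon receptor targets 9 rose, 13 fell and 12 did not pass (64.7% changed). FOXO factors and targets fell in 14 of 24 cases and rose in 3 (median -0.83), which became -0.03 with spike-in scaling. Of 15 Wnt targets and inhibitors 3 rose and 5 fell (53.3%), against 15 of 25 Wnt ligands and receptors higher. Of 23 genes of the TGF-beta and activin pathway 6 rose, 6 fell and 11 did not pass (52.2%).

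In the deposited value table, each of the 4 columns of day 3 correlated best with the scanner array of the other line at the same density, at 0.903 to 0.932 across probes, and at -0.679 to -0.521 with the array of its own label. The other 8 columns correlated best with their own array, at 0.883 to 0.941. With the scanner labels, dense arrays of a line correlated at 0.982 to 0.992 across genes, day 3 included, against 0.782 to 0.793 between the lines. Which of the files carries the right labels was not tested beyond these correlations.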
